A study of Malus x robusta with 27 samples.

Results

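Flowers of the weakly fragrant progeny (WF) and of standard Malus robusta (Mr) were compared at the early balloon stage (EB), when the petals were still closed. The comparison used the 6 libraries that the sample labels assign to these materials and this stage, 3 of WF and 3 of Mr, out of 27 libraries in the series. The other libraries hold the strongly fragrant progeny (SF) at all 3 stages, and WF and Mr at early flowering (ES) and late flowering (LS). Mr is a crabapple used as an apple rootstock, and SF and WF are individual trees selected from its progeny for strong and weak scent, so the 3 WF libraries are flowers of a single genotype and a p-value measures the spread between flowers of these trees. The labels name no treatment. Each library was made from whole flowers, so petals, stamens, pistil and calyx were measured together and more cells of a type cannot be told apart from more RNA per cell.

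A balloon-stage flower is still expanding its petals and filling its anthers. The study describes the petals of both materials as already pink at this stage, more so in Mr, and as only slightly pink once open. It found the highest total volatile contents of both at ES. Flower colour in crabapples comes mainly from anthocyanins, which are made from phenylalanine through phenylalanine ammonia-lyase, chalcone synthase, chalcone isomerase and a series of oxygenases, under the control of Myb and bHLH transcription factors. The same phenylalanine feeds the benzenoid scents, while fatty acid derivatives come from lipoxygenases, alcohol dehydrogenases and acyltransferases, and linalool and its relatives come from terpene synthases.

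The 6 libraries held 19314048 to 29558381 fragments assigned to genes, so an FPKM (fragments scaled to gene length and to library size) of 0.0950 to 0.143 corresponds to 3 fragments on a gene of 1 kb. No library stood apart from its group in the genes specific to the other material: over 44 to 80 genes near 0 in the other libraries of its own material, the median level was 0% of that in the other material. The WF libraries varied more among themselves than the Mr libraries, with a root mean square SD of 0.309 against 0.186 on the log2 scale. Genes with both SRF-type and K-box domains, which include floral organ identity genes, were detected in all 6 libraries for 45 of 50 genes, with none at 0 throughout. Their summed FPKM was 2438 to 2743 in WF and 2873 to 3109 in Mr. Without the most abundant, HF22119, the sums were 1835 to 2172 in WF and 2153 to 2324 in Mr and overlapped. The 56 genes of the pollen list (Ole e I like proteins, oleosins and profilins, 9 of them at 0 in all 6 libraries) summed to 10532 to 11333 FPKM in WF and 6705 to 6960 in Mr. Without the most abundant members HF10388 and HF35977 the sums were 4285 to 5877 in WF and 4223 to 4340.4 in Mr and overlapped. Of the 41 tested genes of the pollen list, 9 were higher in WF and 6 higher in Mr in the test described below. These counts lie near the shares over all tested genes, 19.0% higher in WF and 16.4% higher in Mr. The 42 chlorophyll a-b binding proteins, 3 of them at 0 in all 6 libraries, summed to 4499 to 5155 FPKM in WF and 7592 to 8190 in Mr. Without the most abundant, HF01786, these sums were 1792 to 2412 in WF and 2274 to 2343 in Mr and overlapped. The differences in the pollen sums and in the chlorophyll a-b binding sums thus lay largely in these abundant genes. The part of these differences in the results below was not tested.

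Differentially expressed genes (DEGs) were those with a Benjamini-Hochberg adjusted p under 0.05 in limma on log2(FPKM + 1), and every adjusted p below comes from that test. Of 29660 genes tested, 10479 (35.3%) were DEGs. Of these, 5621 (19.0%) were higher in WF and 4858 (16.4%) were higher in Mr. A difference of at least 1 on the log2(FPKM + 1) scale was reached by 3471 DEGs, 2076 of them higher in WF and 1395 higher in Mr. The 3 WF and 3 Mr libraries did not overlap for 15432 genes (52.0%), and all but 5 of the DEGs were among these. The number of DEGs fell to 6490, 7041 and 6736 without Mr replicate 1, 2 or 3, with 3532, 3718 and 3662 of them higher in WF and 2958, 3323 and 3074 higher in Mr. When libraries were scaled by their total fragments, 4936 DEGs were higher in WF and 5799 higher in Mr, so which side held more DEGs depended on the scaling.

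**Figure D1:**
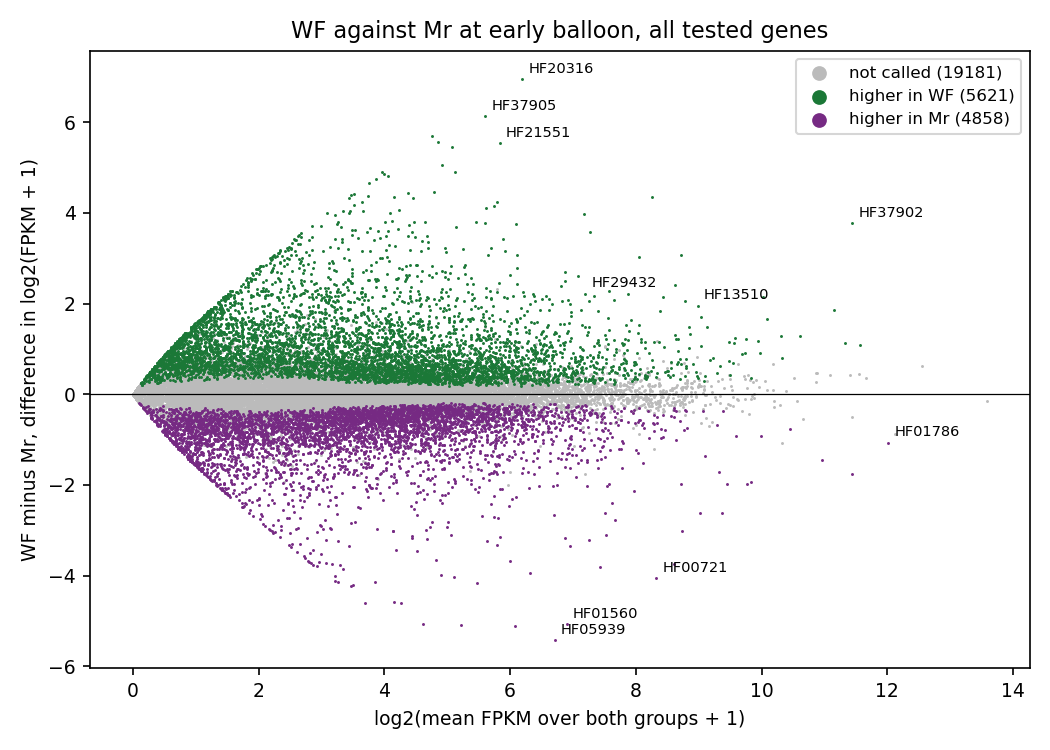
Difference between WF and Mr at EB in log2(FPKM + 1) (vertical axis) against the mean level, log2(FPKM + 1) (horizontal axis), for 29660 tested genes. Each point is a gene, coloured where it was a DEG higher in WF (5621) or higher in Mr (4858), and DEGs lie on both sides at every level.

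The largest rise in WF was in HF20316, a gene model of 216 bases with an actin domain, at chr14:6196941-6197321 (apple HFTH1 v1.0 assembly). Its FPKM was 122, 144 and 165 in the WF libraries and 0.534, 0 and 0 in the Mr libraries, where only 3 fragments were counted in all. Actin forms the filaments along which plant cells move vesicles and grow, but the description does not say whether this model makes a whole actin. The log2 difference was 6.96 ± 0.21 (SE, adjusted p = 5.28e-05), and SF flowers at EB also had a high level of 253.

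The second largest rise was in HF37905, a probable lipid transfer protein of the kind that carries lipids to the cell surface, at chr12:26080307-26080791. It had 91.5, 123 and 69.8 FPKM in WF against 0.320, 0.383 and 0.264 in Mr, a log2 difference of 6.14 ± 0.21 (adjusted p = 5.78e-05). HF37902 lies in the same stretch of chromosome 12, at chr12:26051489-26051830, and was the DEG with the largest difference in FPKM of any gene. Its level was 6535, 4383 and 4644 in WF and 371, 391 and 352 in Mr, 13.97-fold higher in WF. The neighbours, chosen after their values were seen, did not all follow it. HF37903, between these genes, was lower in WF, at 82.2 ± 19.2 against 253 ± 25.4 FPKM (mean ± SD, n = 3, adjusted p = 0.00173), and HF37901 had 6.19 ± 2.71 against 2.44 ± 1.15 (adjusted p = 0.077). How fragments were shared between these similar genes is not given in the sources used here, so the levels of single members are uncertain.

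HF21551, a C2H2-type zinc finger gene of a class of DNA-binding regulators, had 147, 56.5 and 129 FPKM in WF and 0.424, 0.846 and 3.20 in Mr (log2 difference 5.54 ± 0.51, adjusted p = 8.05e-04). HF00321, an acid phosphatase of the HAD superfamily, was at 70.8, 59.7 and 42.2 in WF and 0.605, 1.004 and 0.576 in Mr, 79.04-fold higher. HF19020, of the alpha/beta hydrolase family, was at 67.3, 59.1 and 72.2 against 1.82, 0.725 and 1.34. The largest rises were picked among DEGs whose WF and Mr libraries did not overlap, so the separation in these genes was set by the choice. HF03482 is annotated as petal formation-expressed and had 19.7, 32.4 and 37.05 FPKM in WF and 0.0902, 0 and 0 in Mr. The remaining rises among the first 10 had no domain annotation. HF42346 (38.1, 59.8 and 58.9 FPKM in WF) and HF01719 (26.5, 28.3 and 32.8 in WF) had no fragment in any Mr library, which makes them at least 225-fold and 389-fold higher in WF against a floor of 3 fragments per library. HF43082 and HF21880 had mean FPKM of 55.4 and 65.3 in WF and at most 0.674 in any Mr library. For genes at or near 0 in a group, the fitted log2 difference depends on the pseudocount and is not a bound. Reads were mapped to an apple assembly, so a gene that is not expressed cannot be told apart here from a gene absent or unmapped.

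The largest fall was in HF05939, with no annotated domain, from 201, 239 and 170.4 FPKM in Mr to 1.91, 6.09 and 4.15 in WF (log2 difference -5.42 ± 0.33, adjusted p = 1.97e-04). HF08845, a chlorophyll a-b binding protein, had 125, 145 and 121 FPKM in Mr and 1.90, 3.39 and 3.26 in WF, 45.7-fold lower. HF01560, a phenylalanine ammonia-lyase that the study calls MrPAL1, had 198, 304 and 188 in Mr and 11.6, 5.06 and 2.90 in WF, 35.3-fold lower (log2 difference -5.08 ± 0.44, adjusted p = 6.25e-04). HF32696 encodes a DUF642 protein, a family of cell wall proteins. It was at 82.7, 40.4 and 92.2 FPKM in Mr and 1.12, 1.27 and 0.682 in WF, and at a mean of 855 in SF. HF10951, a GDSL-like lipase, was at 38.7, 59.9 and 40.6 in Mr and 0.233, 0.348 and 0.595 in WF. The largest falls were picked in the same way, so the separation of the WF and Mr libraries was again set by the choice.

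A newly assembled gene of the BT1 family of membrane transporters, at chr5:5375792-5379229, had no fragment in WF and 26.7, 18.1 and 26.5 FPKM in Mr, at least 668-fold lower in WF against the 3-fragment floor. HF10031, an NAD dependent epimerase/dehydratase, fell from 20.1 to a mean of 0.113. This protein family includes dihydroflavonol reductases, but the annotation of HF10031 does not say which enzyme it encodes. HF05120, a putative S-adenosylmethionine-dependent methyltransferase, was at 19.6, 23.4 and 18.02 in Mr and 0, 0 and 0.542 in WF, and at a mean of 24.3 in SF. HF16065 and a newly assembled gene at chr13:17592731-17594072, with no annotated domain, had means of 35.99 and 33.2 in Mr and 0.515 and 0.472 in WF.

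**Figure D2:**
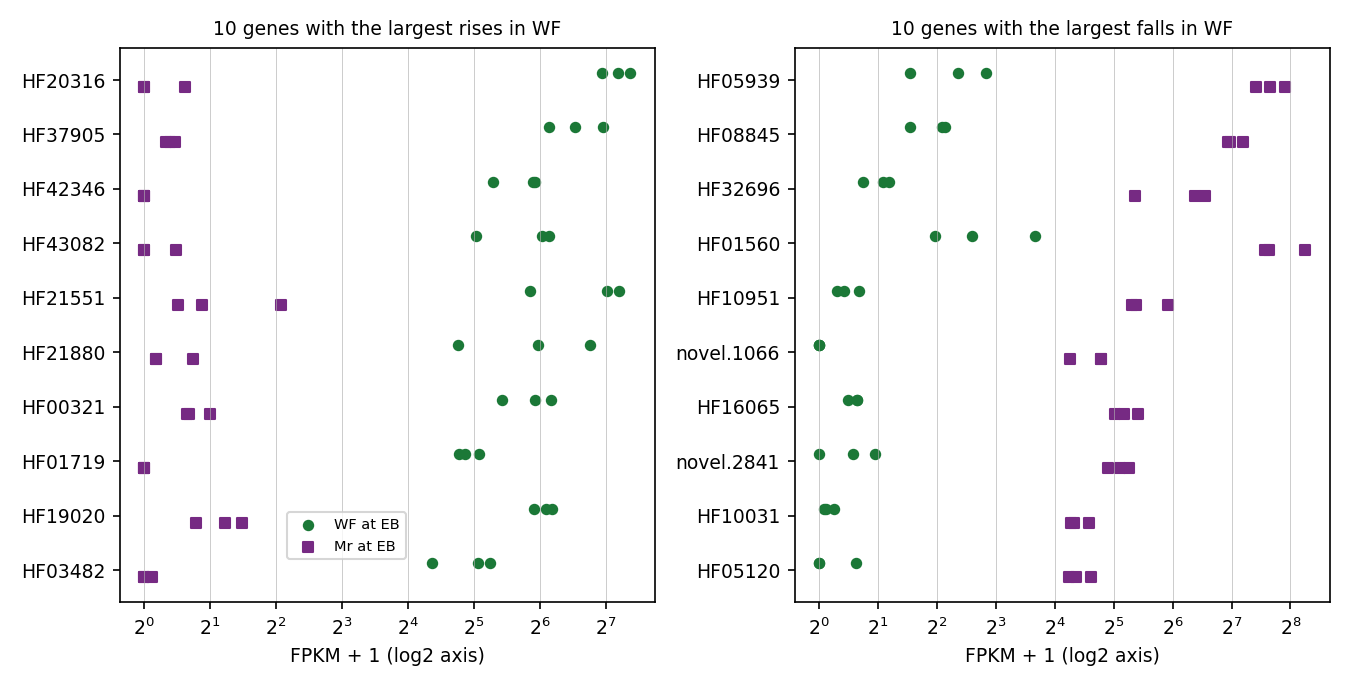
FPKM + 1 (horizontal log2 axis) in each of the 3 WF (circles) and 3 Mr (squares) libraries at EB for the 10 DEGs with the largest rises and the 10 with the largest falls in WF. In HF20316 the WF libraries sit at 122 to 165 FPKM and the Mr libraries at 0.534 or less. The genes were chosen among those whose groups do not overlap.

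Complete absence of fragments in the libraries of a material was more limited, and it does not show whether the gene itself was missing. Listed at 0 in all 3 Mr libraries and at 1 FPKM or more in all 3 WF libraries were 130 genes, of which 95 had no domain description and 37 were newly assembled. Their mean WF level had a median of 2.81 FPKM and reached 52.3. The reverse, at 0 in WF and at 1 FPKM or more in Mr, held for 93 genes, with a median Mr level of 2.39 FPKM. At ES, in other libraries, 102 of the 130 genes were again at 0 in all 3 Mr libraries, and 75 of the 93 again at 0 in all 3 WF libraries. The other material was also at 1 FPKM or more in all 3 ES libraries for only 79 of the 130 and 45 of the 93. A gene at 0 at ES without this does not repeat the difference. Of the 130 genes, SF had at least 1 FPKM in all its EB libraries for 69 and was at 0 in all of them for 24. Of the 93, SF had at least 1 FPKM in all its libraries for 25 and was at 0 for 29.

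By absolute level, the DEGs with the largest gains in WF after HF37902 were HF03811 and HF31923, without an annotated domain, and the Ole e I like pollen proteins HF10388 and HF35977. HF03811 had 4660.2, 3618 and 2502 FPKM in WF against 838, 1029 and 1019 in Mr (adjusted p = 0.00403). HF10388 had 3214, 3344 and 4104 against 1677, 1501 and 1650.2 (adjusted p = 0.00900). Its call was lost without Mr replicate 1 (adjusted p = 0.053) and in a limma fit over all 9 groups of libraries (adjusted p = 0.45). HF35977 had 2242, 1973 and 2488 against 951, 863 and 909.8 (adjusted p = 0.00227). HF10388 and HF35977 were 2.21-fold and 2.46-fold higher in WF, with every WF library above every Mr library. HF31923 had 5251, 3584 and 3661 against 2029, 1852 and 1906 FPKM, and its call was lost without Mr replicate 1, 2 or 3 (adjusted p = 0.072 to 0.085).

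On the other side, HF01786, a chlorophyll a-b binding protein, had 5848, 5318 and 5612 FPKM in Mr and 2743, 2555 and 2707 in WF (adjusted p = 0.022). The libraries did not overlap, but the call was lost without Mr replicate 1, 2 or 3 or WF replicate 2 or 3 (adjusted p = 0.053 to 0.098). HF07380, of the Bet v 1 family of pathogenesis-related proteins and allergens, had 2708, 3557 and 2499 in Mr and 1397, 930.04 and 922 in WF (adjusted p = 0.00758). A newly assembled gene of the thaumatin family, at chr4:7891439-7945706, had 1555, 1293 and 1298 in Mr against 237, 363 and 485 in WF, 3.82-fold lower (adjusted p = 0.00295). Thaumatin-like proteins are also pathogenesis-related proteins. HF29533 and HF19877, with no annotated domain, had means of 4245 and 1428 in Mr and 1286 and 385 in WF, and the call of HF29533 was lost without Mr replicate 2 (adjusted p = 0.051).

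Genes were then grouped into 36 lists by the protein domain in their description, and counts are read against 19.0% higher in WF and 16.4% higher in Mr over all tested genes. The median difference over all tested genes was 0.02. As with the total, most counts fell when an Mr library was left out, and a count that changed by more than 1.5-fold without a library is followed by its value without that library.

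**Figure D3:**
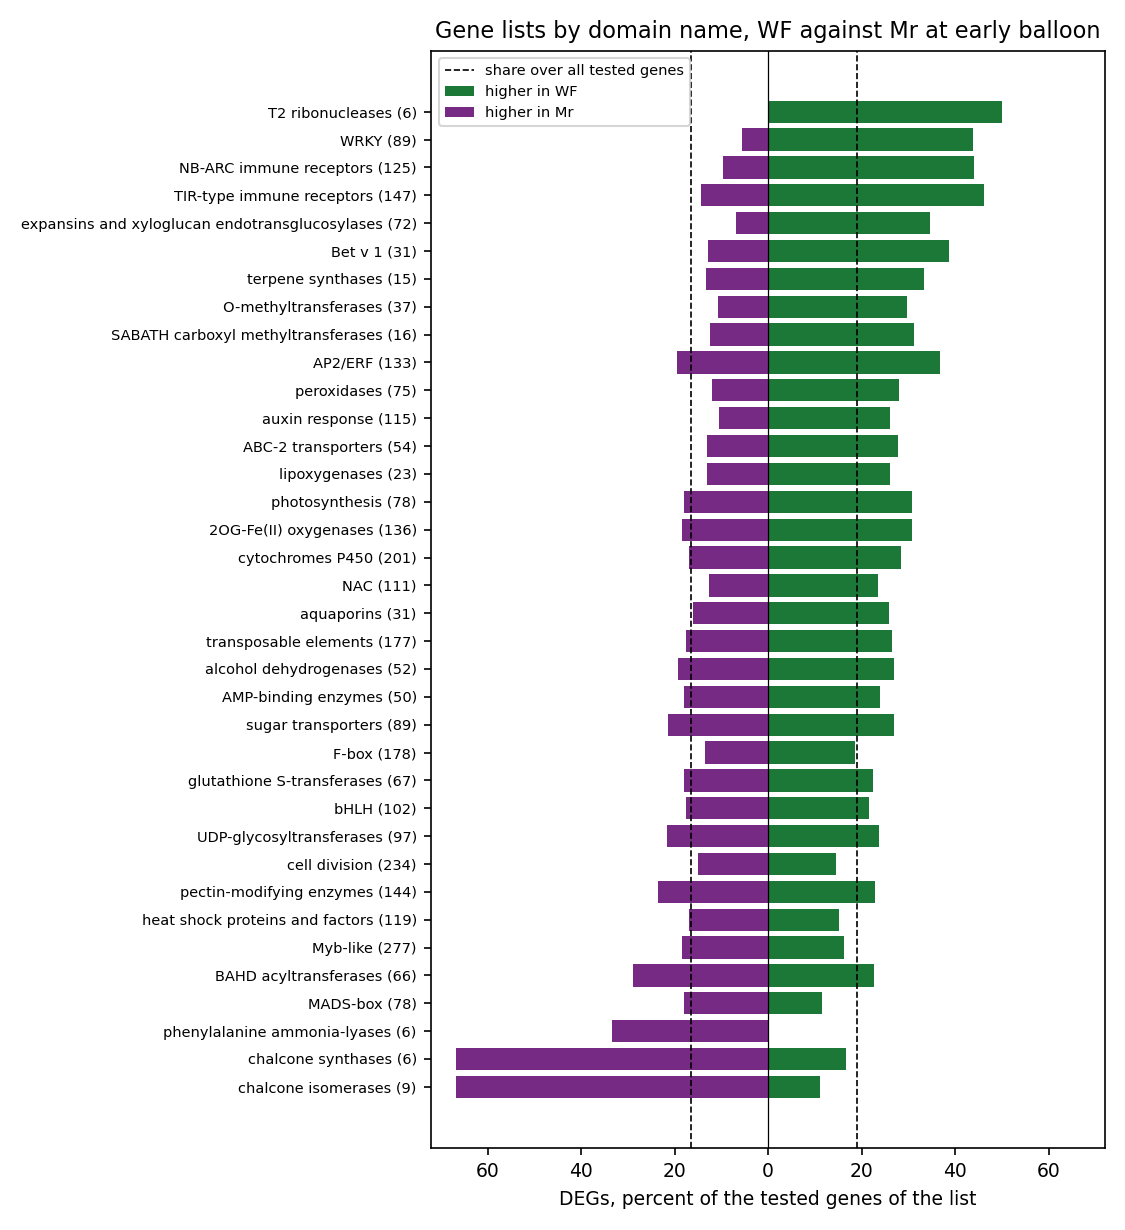
Share of the tested genes of each list (number tested in brackets) that were DEGs higher in WF (bars to the right, percent) or higher in Mr (bars to the left, percent) at EB. The dashed lines mark 19.0% and 16.4% over all tested genes, and chalcone isomerases and chalcone synthases extend farthest to the left.

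Most chalcone synthases and chalcone isomerases were lower in WF. Of 6 chalcone synthases tested, 4 were higher in Mr and 1 (0 without Mr replicate 1 or 2) higher in WF, with a median log2 difference of -2.02. The summed FPKM of this list was 165 to 477 in WF and 1511 to 2583 in Mr. Of 9 chalcone isomerases, 6 were higher in Mr and 1 (0 without Mr replicate 1 or 2, 0 without WF replicate 2 or 3) in WF (median -1.44). Of 6 phenylalanine ammonia-lyases, HF01560 and HF04849 were higher in Mr, and the other 4 were not DEGs. The median of the list was 0.13. Without WF replicate 1, 2 phenylalanine ammonia-lyases were DEGs higher in WF.

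Chalcone synthase joins the phenylpropanoid precursor to malonyl units and so makes the flavonoid skeleton. HF00721, at chr4:412728-414059, had 556, 795 and 446 FPKM in Mr and 65.5, 29.2 and 20.7 in WF (log2 difference -4.05 ± 0.44, adjusted p = 0.00134). Next to it, HF00720 had 1109.8, 1419.8 and 847 in Mr and 325, 169 and 102 in WF, 5.66-fold lower (adjusted p = 0.00581), and HF35684 on chromosome 13 had 193, 272 and 159.6 and 41.7, 19.9 and 11.9 (adjusted p = 0.00330). In each gene WF replicate 1 was the highest of the WF libraries and still below the lowest Mr library. HF26996, a model of 315 bases against 1176 for HF00721, was the chalcone synthase higher in WF, at a mean of 5.01 against 2.83 FPKM. Its call was lost without Mr replicate 1 or 2 (adjusted p = 0.059 to 0.065). HF00720, HF35684 and the genes HF23861, HF07438, HF36879 and HF11140 below were chosen after their values were seen.

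Chalcone isomerase closes the flavonoid ring. HF25114 had 217, 249 and 209 FPKM in Mr and 28.3, 20.6 and 15.8 in WF, 10.4-fold lower (log2 difference -3.36 ± 0.20, adjusted p = 1.97e-04), and HF23861 had 335, 454 and 271 against 81.8, 48.4 and 30.2 (adjusted p = 0.00289). The exception was HF21441, whose gene model joins a chalcone isomerase to a glycosyl hydrolase domain and which had a mean of 6.97 FPKM in WF and 3.26 in Mr, a call lost without Mr replicate 1 or 2 or WF replicate 2 or 3 (adjusted p = 0.058 to 0.074). HF04849, the phenylalanine ammonia-lyase after HF01560, had 129, 198 and 118 in Mr and 9.64, 7.20 and 8.73 in WF, 17.4-fold lower (adjusted p = 1.47e-04).

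Families of the later steps had DEGs in both directions. The 2OG-Fe(II) oxygenases, which include flavanone hydroxylase and anthocyanidin synthase among many other enzymes, had 42 (27 without Mr replicate 1) DEGs higher in WF and 25 higher in Mr of 136 (30.9% and 18.4%, median 0.15). The largest fall was in HF08300, from 338, 437 and 209 FPKM in Mr to 69.4, 29.6 and 22.2 in WF (adjusted p = 0.00422), and the largest rise in HF07215, from 0.692, 0.912 and 0.728 to 15.97, 17.3 and 25.4 (adjusted p = 1.52e-04). Glutathione S-transferases, some of which carry anthocyanins to the vacuole, had 15 (9 without Mr replicate 1, 2 or 3) DEGs higher in WF and 12 higher in Mr of 67. HF32109 had 295, 456 and 208 in Mr and 24.8, 14.1 and 24.7 in WF (log2 difference -3.82 ± 0.34), and HF07438 had 693, 837 and 656 and 58.1, 54.4 and 48.2, 13.6-fold lower (adjusted p = 5.28e-05). The opposite was seen in HF19507, with 9.40, 10.6 and 11.1 in WF and 0.247 FPKM or less in the Mr libraries. UDP-glycosyltransferases, which attach sugars to flavonoids and other compounds, had 23 (14 without Mr replicate 1 or 2) and 21 of 97, led by HF25899 (mean 13.8 in WF, 4.44 in Mr) and HF16206 (0.693 in WF, 9.93 in Mr).

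Myb-like and bHLH genes, whose families hold the regulators of anthocyanin synthesis, changed in both directions. Of 277 Myb-like genes, 45 (28 without Mr replicate 3) were higher in WF and 51 (32 without Mr replicate 1) higher in Mr, and of 102 bHLH genes, 22 (14 without Mr replicate 1 or 2) and 18. The largest Myb-like fall was in HF28523, with 9.73, 16.8 and 9.38 FPKM in Mr and 0.159, 0.130 and 0.0582 in WF (log2 difference -3.49 ± 0.23, adjusted p = 2.31e-04), and HF36879 had 13.9, 20.4 and 14.5 and 1.34, 0.562 and 0.582. Among bHLH genes, HF41568 had 49.3, 55.2 and 46.7 in Mr and 12.9, 8.39 and 8.99 in WF (adjusted p = 3.53e-04), while HF11140 had 4.01, 2.60 and 3.71 in Mr and no fragment in WF, at least 30.2-fold lower. The leading rises were HF12977 (Myb-like, mean 11.5 in WF and 1.14 in Mr) and HF08705 (bHLH, 10.3 and 0.729). SF, which shares no library with either group, had mean EB levels of 3.96 FPKM for HF01560, 10.3 for HF00721, 16.2 for HF25114, 52.5 for HF07438, 0.161 for HF28523 and 0.0194 for HF11140, each below the lowest Mr library.

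The leading genes were lower in WF at ES too, in libraries of the same trees that the EB comparison did not use. HF01560 was at 4.13, 4.72 and 6.91 FPKM in WF and 209.99, 306 and 215 in Mr at ES (log2 difference -5.29 ± 0.22, adjusted p = 1.50e-04), HF00721 at 17.6, 17.6 and 22.3 and 171, 181 and 189.8 (adjusted p = 1.24e-04), and HF25114 at 79.2, 30.3 and 30.03 and 391, 379 and 421 (adjusted p = 0.00298). At ES 4 of 6 chalcone synthases were higher in Mr and 2 in WF, and 3 of 9 chalcone isomerases were higher in Mr, against 12.4% higher in Mr and 12.5% higher in WF over all genes. At LS, with Mr replicate 2 left out for reasons given below, HF28523 (adjusted p = 0.00699), HF07438 (adjusted p = 0.010) and HF25114 (adjusted p = 0.028) were again lower in WF, whereas HF01560 had a mean of 9.47 against 223 FPKM (adjusted p = 0.064) and HF00721 27.5 against 220.4 (adjusted p = 0.14). WF replicate 2 made up most of these WF means, since the WF libraries at LS had 0.178, 25.3 and 2.90 FPKM for HF01560 and 0.816, 72.6 and 9.11 for HF00721. Over 71 genes near 0 in the other WF libraries at LS, WF replicate 2 held a median of 0.648% of the Mr level. It was kept in these fits. The EB difference did not pass the test of a change between EB and ES for HF01560 (adjusted p = 0.87), HF00721 (0.37), HF25114 (0.91) and HF28523 (0.50).

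**Figure D4:**
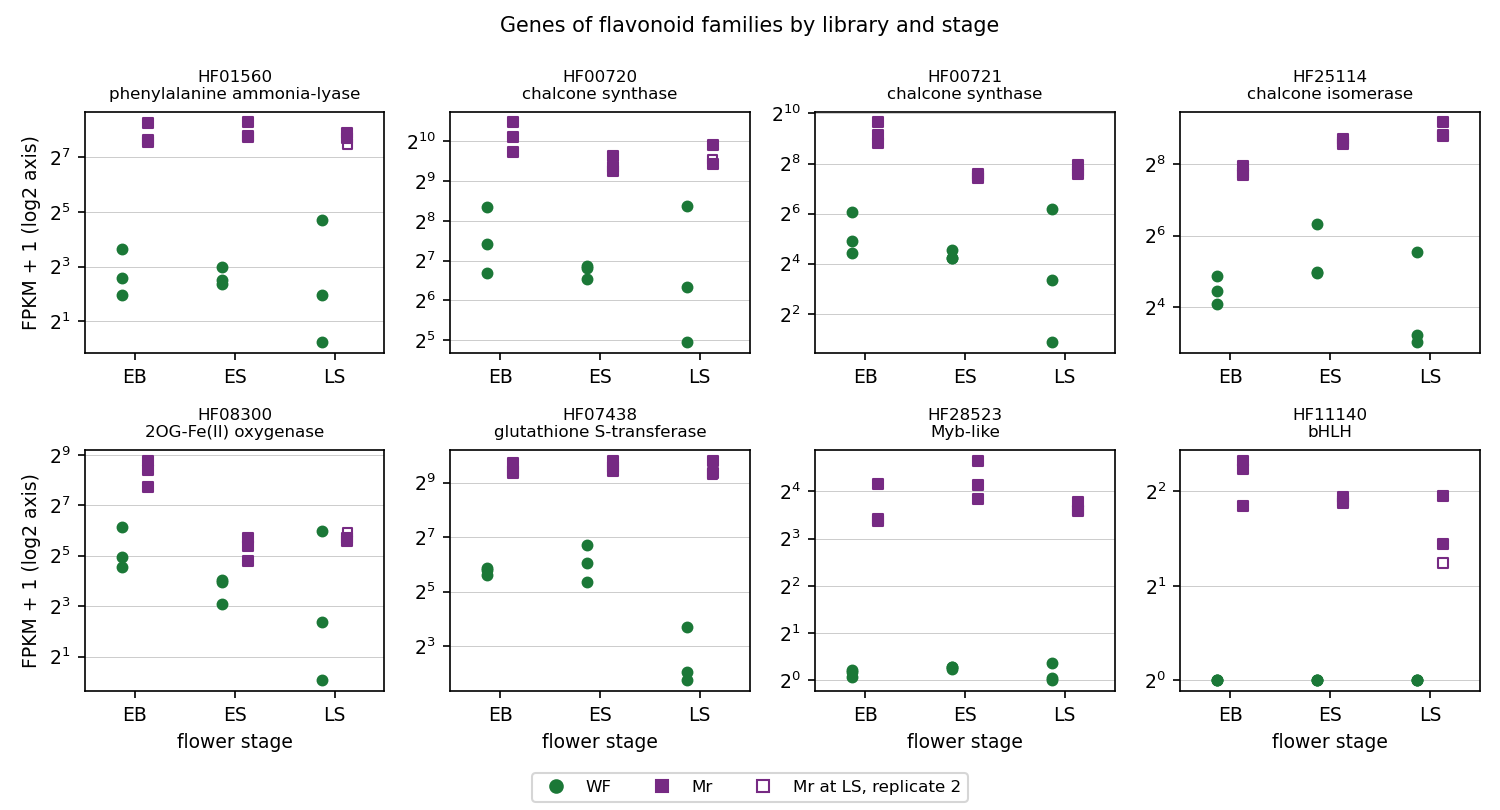
FPKM + 1 (vertical log2 axis) in each WF (circles) and Mr (squares) library at EB, ES and LS for 8 genes of flavonoid families. At EB HF00721 sits at 20.7 to 65.5 FPKM in WF and 446 to 795 in Mr, and the open square is Mr replicate 2 at LS, in which genes otherwise near 0 in Mr were detected.

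Among scent families, the carboxyl methyltransferases of the SABATH family, which make methyl benzoate and other methyl esters, had 5 DEGs higher in WF and 2 higher in Mr of 16 tested. Their summed FPKM was 1020.5 to 1384 in WF and 441 to 569.8 in Mr. HF13510 was the most abundant member, with 701, 673 and 1041 in WF and 204, 169 and 240.3 in Mr, 3.94-fold higher in WF (log2 difference 1.96 ± 0.21, adjusted p = 0.00140), and SF had a mean of 1367. At ES it had 2642, 2036 and 1349 FPKM in WF and 1122, 1338 and 952 in Mr (adjusted p = 0.17), and the change of the difference between the stages was 1.18 ± 0.39 (adjusted p = 0.13). HF36787 was the largest fall, at a mean of 1.01 in WF and 2.56 in Mr.

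Terpene synthases had 5 DEGs higher in WF and 2 (1 without Mr replicate 1, 2 or 3, 1 without WF replicate 2) higher in Mr of 15 tested, and their summed FPKM was 344 to 426 in WF and 105 to 150.4 in Mr. HF29432, the most abundant, had 196, 228 and 289 FPKM in WF and 51.2, 30.5 and 77.9 in Mr, 4.47-fold higher (adjusted p = 0.00457). It was also higher in WF at ES, at 129, 100.1 and 79.2 against 13.9, 12.6 and 7.77 (adjusted p = 0.00100). HF04465 had 9.01, 6.41 and 2.94 in WF and 0.571, 0.683 and 0.226 in Mr (adjusted p = 0.00552). HF03677 was higher in Mr, at 3.38, 1.27 and 2.33 against 0.349, 0.164 and 0.294 (adjusted p = 0.00782), and HF17848 had means of 9.08 and 4.49, a call lost without Mr replicate 1, 2 or 3 or WF replicate 2 or 3 (adjusted p = 0.079 to 0.13).

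O-methyltransferases, which methylate phenolic compounds, had 11 (6 without Mr replicate 1 or 3, 7 without Mr replicate 2) DEGs higher in WF and 4 higher in Mr of 37. HF33556, at chr9:6304307-6313072, had 10.5, 10.6 and 10.3 FPKM in WF and 0.327, 0.392 and 0.587 in Mr (23.98-fold higher, adjusted p = 6.49e-05). HF33550, another O-methyltransferase on chromosome 9 and chosen after its values were seen, had 3.32, 1.85 and 1.71 in WF and no fragment in Mr, at least 19.05-fold higher. HF10512 was the largest fall, at 2.68, 2.27 and 2.30 in Mr and 0.304, 0.0590 and 0.119 in WF. BAHD acyltransferases, which form esters, had 15 (9 without Mr replicate 1) and 19 of 66, led by HF35196 (22.1, 20.2 and 21.8 FPKM in WF and 2.01, 1.49 and 1.12 in Mr) and HF18078 (2.65, 3.85 and 2.86 in WF and 46.2, 64.3 and 42.9 in Mr, adjusted p = 1.40e-04). The share of BAHD genes higher in Mr was 28.8%.

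Lipoxygenases, which start the route to green-leaf volatiles, had 6 DEGs higher in WF and 3 higher in Mr of 23. HF00494 had 58.8, 12.2 and 23.7 FPKM in WF and 3.34, 3.16 and 4.18 in Mr (adjusted p = 0.012). HF12047, a model of 291 bases, had 10.6, 17.7 and 26.1 in WF and 2.77, 3.48 and 2.12 in Mr (adjusted p = 0.00348). HF16930 was higher in Mr, at 3.55, 3.58 and 3.35 against 0.0896 or less in WF. Alcohol dehydrogenases had 14 (9 without Mr replicate 1 or 3) and 10 of 52, led by HF15151 (mean 6.78 in WF, 1.35 in Mr) and HF09681 (0.817 in WF, 13.3 in Mr, adjusted p = 8.53e-05). AMP-binding enzymes, which include the CoA ligases of the phenylpropanoid route, had 12 and 9 of 50, with HF35226 at 8.78 in WF and 1.77 in Mr and HF23281 at 3.06 and 30.3.

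Of the 43 homologues that the study lists for the synthesis of leaf acetate, methyl benzoate, methyl anthranilate and linalool, 42 were tested, and 9 were higher in WF and 8 higher in Mr. These counts lie near the shares over all tested genes, 19.0% higher in WF and 16.4% higher in Mr. For leaf acetate 6 of 17 were higher in WF and 4 higher in Mr. Besides HF00494 and HF12047, those higher in WF were the lipoxygenase HF28791 (77.3, 21.3 and 26.3 against 6.87, 6.38 and 8.55 FPKM, a call lost without Mr replicate 1 or 2, adjusted p = 0.057 to 0.058), the acyltransferases HF10162 and HF10164 (means 1.56 and 0.757 in WF, 0.317 and 0.182 in Mr, the second lost without Mr replicate 1, adjusted p = 0.053), and the cytochrome P450 HF29363 (140.4, 112 and 105 against 47.7, 49.1 and 48.8, adjusted p = 7.66e-04), which the study lists as a lyase homologue. Those higher in Mr were HF16930, the lipoxygenase HF18003 (21.3, 19.3 and 20.5 in Mr, 13.7, 13.97 and 14.9 in WF), the acyltransferase HF27219 (8.46, 9.10 and 6.54 in Mr, 0.237, 0.184 and 0.185 in WF, adjusted p = 1.18e-04) and the alcohol dehydrogenase HF31862 (mean 0.745 in Mr, 0.136 in WF).

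For linalool, 3 of 17 tested homologues were higher in each material. HF41298, the reductoisomerase of the plastid terpene route, had 29.5, 31.99 and 30.3 FPKM in WF and 19.5, 22.2 and 20.1 in Mr (adjusted p = 0.00318), and HF38513, with a NUDIX domain, had 99.6, 101 and 121 and 80.2, 72.01 and 75.3. The other homologue higher in WF was the terpene synthase HF04465, and HF17848 was among those higher in Mr. The synthase HF12728, at the entry of that route, was at 9.18 in WF and 13.02 in Mr, a call lost without Mr replicate 1, 2 or 3 or WF replicate 2 or 3 (adjusted p = 0.077 to 0.11), and the geranyl diphosphate synthase HF18284 at 24.6 and 33.1, lost without Mr replicate 1 or 3 (adjusted p = 0.062 to 0.063). HF04849, higher in Mr, was the DEG among 3 homologues for methyl benzoate, and none of 5 for methyl anthranilate passed the test. Of 4 other phenylpropanoid genes tested that the study names, HF01560 and HF25290 (MrOMT1, 30.9, 32.4 and 38.5 FPKM in Mr, 17.8, 11.002 and 18.9 in WF, adjusted p = 0.011) were higher in Mr, and HF25090 (MrCAD9, means 2.86 in WF and 0.877 in Mr) was higher in WF, a call lost without Mr replicate 1 or 3 (adjusted p = 0.054 to 0.059). Of 7 transcription factors it names, only HF03111, a B-box zinc finger gene, was a DEG, at 45.9, 44.5 and 39.5 in Mr and 12.4, 16.4 and 15.2 in WF (adjusted p = 4.65e-04). The study chose these genes on samples that include the present ones, so their counts are not independent evidence. At EB the study detected linalool and leaf acetate in Mr but not in WF, and methyl benzoate in WF but not in Mr. The relation of these RNA levels to the amounts of volatiles was not tested.

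WRKY and AP2/ERF transcription factors, families linked to stress and hormone responses, were more often higher in WF than higher in Mr at EB. Of 89 WRKY genes, regulators of defence, 39 (43.8%) were higher in WF and 5 (3 without Mr replicate 1, 2 or 3, 3 without WF replicate 3) higher in Mr, with a median log2 difference of 0.32, and 27 of the rises were at least 1 on the log2 scale. Of 133 AP2/ERF genes, which include the ethylene response and cold response factors, 49 (32 without Mr replicate 1 or 2) (36.8%) were higher in WF and 26 (14 without Mr replicate 1, 17 without Mr replicate 2, 13 without Mr replicate 3) in Mr (median 0.21). NAC genes had 26 (17 without Mr replicate 1, 16 without Mr replicate 2) higher in WF and 14 (8 without Mr replicate 1, 9 without Mr replicate 3) higher in Mr of 111, shares of 23.4% and 12.6% that lie near those over all genes.

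HF30831 was the AP2/ERF gene with the largest rise, with 49.7, 11.4 and 55.4 FPKM in WF and 0.225, 0.135 and 1.46 in Mr (log2 difference 4.45 ± 0.64, adjusted p = 0.00365). HF22606, chosen after its values were seen, had 39.8, 7.75 and 51.9 and 0.186, 0.167 and 0.634 (adjusted p = 0.00470 in limma on FPKM and 0.057 in limma voom on the recovered fragments). The WRKY gene HF08596 had 51.7, 11.03 and 26.9 and 0.546, 0.784 and 2.61 (adjusted p = 0.00575), and the NAC gene HF26081 97.4, 39.6 and 65.6 and 6.95, 7.98 and 9.06 (adjusted p = 0.00144). In SF at EB, also a single tree, these genes varied widely between libraries. SF had 1.10, 5.41 and 44.3 FPKM for HF30831 and 1.69, 9.80 and 42.7 for HF22606. It had 9.70, 40.5 and 56.0 for HF08596 and 11.5, 56.8 and 104 for HF26081. The WF and Mr libraries did not overlap in any of these genes, but WF replicate 2 was the lowest WF library in all 4. Over the whole families, replicate 2 was lowest in 31 of 49 AP2/ERF, 27 of 39 WRKY and 14 of 26 NAC genes higher in WF, against 2113 of all 5621 genes higher in WF (37.6%). Largest in the opposite direction were HF12669 (AP2/ERF, 9.94, 17.5 and 11.02 FPKM in Mr, 3.86, 2.95 and 3.58 in WF), HF05610 (NAC, 9.18, 13.2 and 12.6 in Mr, 2.97, 3.37 and 1.80 in WF) and HF04616, whose gene model joins a WRKY domain to an FtsH protease.

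At ES WRKY genes had 6 higher in WF and 5 higher in Mr, AP2/ERF genes 8 and 14, and NAC genes 5 and 8, with median differences of 0.08, -0.21 and -0.20. Over all tested genes at ES, 12.5% were higher in WF and 12.4% higher in Mr. At LS, without Mr replicate 2, WRKY genes had 5 higher in WF and 0 higher in Mr, AP2/ERF genes 6 and 12, and NAC genes 5 and 7, with medians of 0.23, -0.29 and -0.08. The shares over all tested genes at LS were 5.71% higher in WF and 6.79% higher in Mr. The difference between WF and Mr passed the test of a change between EB and ES, towards WF at EB, for 15 AP2/ERF, 7 WRKY and 7 NAC genes, and towards Mr at EB for 1 AP2/ERF gene and no WRKY or NAC gene, against 2.56% and 0.826% of all genes. HF30831 was at 0.258, 2.44 and 0.940 FPKM in WF and 0.853, 97.6 and 164 in Mr at ES, so Mr rose in replicates 2 and 3 but not in replicate 1. The change of its difference was 8.38 ± 1.96 (adjusted p = 0.047). Single calls and list counts of this test without a library are not given, and its total without a library is given below. HF08596 was at 10.3, 8.08 and 25.3 and 10.5, 27.7 and 28.4 at ES (change 4.21 ± 0.86, adjusted p = 0.029), and HF26081 at 11.96, 16.4 and 16.2 and 10.9, 55.8 and 82.7 (change 4.13 ± 0.84, adjusted p = 0.029). For HF21551, the zinc finger gene among the largest rises, ES levels were 15.9, 25.6 and 66.6 and 5.01, 74.1 and 108, and the change did not pass the test (adjusted p = 0.051).

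**Figure D5:**
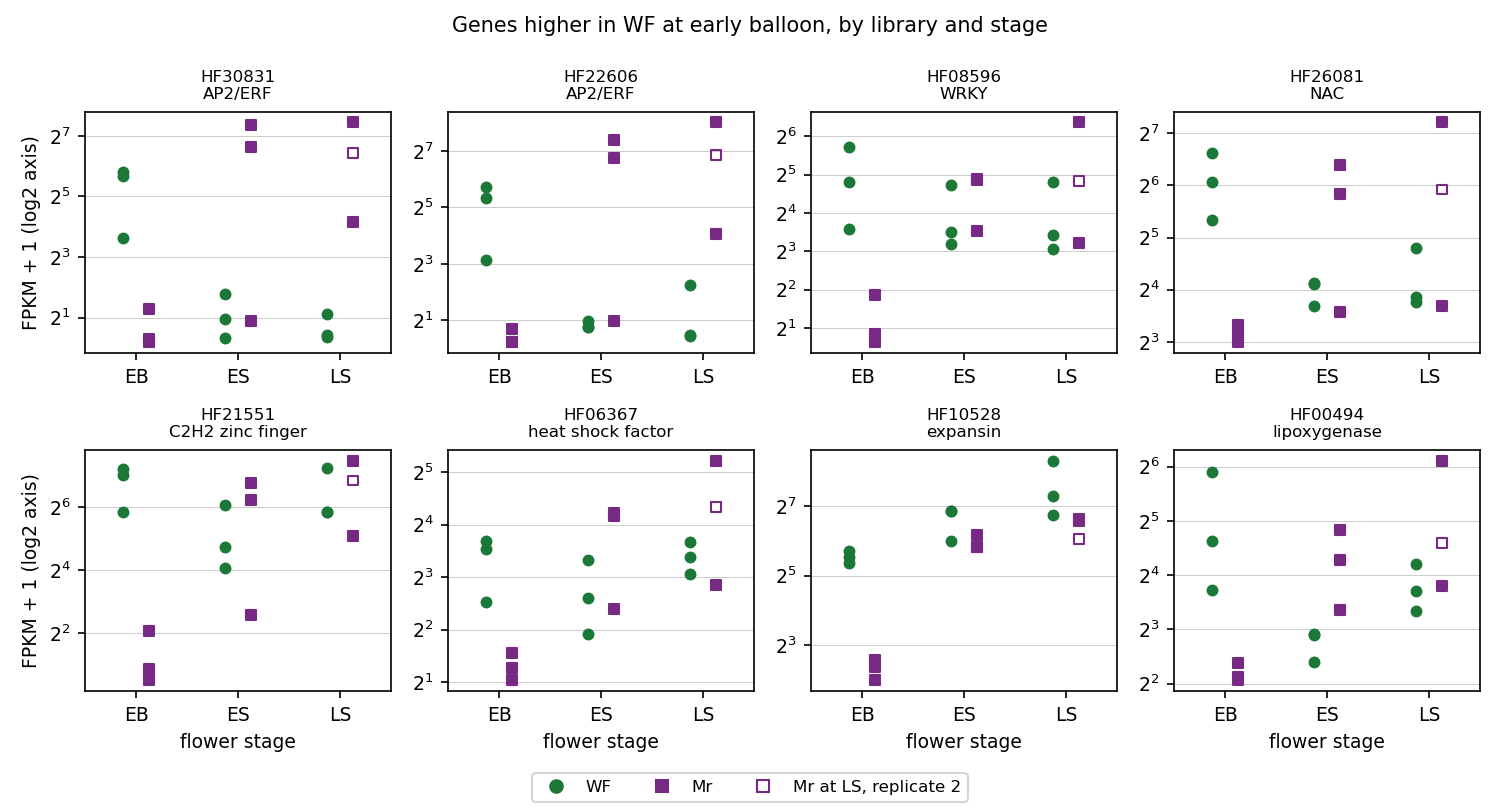
FPKM + 1 (vertical log2 axis) in each WF (circles) and Mr (squares) library at EB, ES and LS for 8 genes higher in WF at EB. HF30831 sits at 11.4 to 55.4 FPKM in WF and 0.135 to 1.46 in Mr at EB, while at ES 2 of the 3 Mr libraries, at 97.6 and 164, lie above all WF libraries.

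Auxin response genes had 30 (17 without Mr replicate 1, 19 without Mr replicate 2) DEGs higher in WF and 12 (7 without Mr replicate 1 or 2, 6 without Mr replicate 3, 7 without WF replicate 2) higher in Mr of 115. HF04880 had 20.1, 4.71 and 25.6 FPKM in WF and 0.0854, 0.102 and 0.106 in Mr (adjusted p = 0.00429), and HF00627 had 11.7, 5.15 and 14.9 in Mr and 1.15, 5.03 and 2.002 in WF, a call lost without Mr replicate 1 or 3 or WF replicate 1 or 3 (adjusted p = 0.095 to 0.13). MADS-box genes, which include those that set floral organ identity, had 9 and 14 (7 without Mr replicate 1, 9 without Mr replicate 2 or 3) of 78, with HF39276 higher in WF (7.89, 11.5 and 17.2 against 2.68, 2.52 and 2.13) and HF17455 higher in Mr (23.7, 20.3 and 26.9 against 9.29, 7.38 and 4.63). The most abundant gene with SRF-type and K-box domains, HF22119, chosen after its values were seen, was at 775, 785 and 702 in Mr and 570.4, 581 and 603 in WF. Its small difference of -0.36 ± 0.10 was a call lost without Mr replicate 1, 2 or 3 or WF replicate 2 or 3 (adjusted p = 0.064 to 0.15). Heat shock proteins and factors had 18 (10 without Mr replicate 1, 9 without Mr replicate 2 or 3) and 20 of 119. HF06367, a heat shock factor, was at 11.9, 4.75 and 10.6 in WF and 1.40, 1.05 and 1.94 in Mr, and HF28946, a small heat shock protein, at 31.5, 28.3 and 30.7 in Mr and 2.77, 2.15 and 3.89 in WF (adjusted p = 1.70e-04).

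Immune receptor genes were more often higher in WF. These proteins sense pathogen molecules inside the cell and lie in clusters of similar copies, so the level of a single member is uncertain. Of 125 genes with an NB-ARC domain, 55 (44.00000%) were higher in WF and 12 higher in Mr (median 0.39). Of 147 genes with a TIR domain, 68 (46.3%) were higher in WF and 21 in Mr (median 0.39). Genes with both domains were counted in both lists, so these counts are not separate results. The summed FPKM of the NB-ARC list was 597 to 746 in WF and 404 to 437 in Mr, and the groups did not overlap. HF37161 had 9.44, 9.03 and 11.1 FPKM in WF and 0.986, 0.651 and 1.05 in Mr (adjusted p = 1.70e-04), and the TIR gene HF36158 6.75, 6.86 and 7.82 and 0.476, 0.368 and 0.528 (adjusted p = 1.01e-04). HF40231, with a TIR domain, went the other way, at 19.4, 17.2 and 19.5 in Mr and 0.817, 1.07 and 0.906 in WF (adjusted p = 5.89e-05), as did a newly assembled gene with NB-ARC and TIR domains at chr2:36850180-36867618 (3.34, 2.99 and 2.27 in Mr and 0.0842 or less in WF). At ES 39 NB-ARC and 62 TIR genes were higher in WF, and 13 and 21 higher in Mr, against 12.5% and 12.4% over all tested genes.

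Of 31 Bet v 1 genes, 12 were higher in WF and 4 (2 without Mr replicate 1) in Mr (median 0.41), although the list's summed FPKM was lower in WF (2076 to 2482 against 3081 to 4221), HF07380 being its most abundant member. On chromosome 16, HF26539 had 51.96, 27.99 and 41.7 FPKM in WF and 1.38, 1.70 and 2.71 in Mr (log2 difference 3.81 ± 0.27, adjusted p = 3.02e-04), and HF26542, in the same stretch, had 282, 326 and 337 and 66.02, 73.2 and 54.3. Between them HF26540 was lower in WF, at 135 ± 29.1 against 259 ± 54.1 (mean ± SD, n = 3, adjusted p = 0.017). On chromosome 13, HF43099 had 404, 459 and 702 in WF and 125, 140.4 and 159 in Mr (adjusted p = 0.00192). HF26540, HF26542 and HF43099 were chosen after their values were seen. HF22085 was the largest fall, at 7.06, 6.72 and 5.51 in Mr and 0.120, 0.272 and 0.805 in WF. Of the 31 Bet v 1 genes, 2 were higher in WF and 3 higher in Mr at ES. At LS, without Mr replicate 2, 9 were higher in WF and 1 higher in Mr. Peroxidases, which act in defence and wall stiffening, had 21 and 9 of 75, led by HF06391 (11.1, 4.98 and 20.8 FPKM in WF, at most 0.0778 in Mr) and HF01632 (9.69, 8.86 and 11.8 in Mr, 1.73, 1.56 and 1.64 in WF). T2 ribonucleases, a family that includes the style ribonucleases of self-incompatibility in apple, had 3 of 6 tested higher in WF and none higher in Mr, led by HF30379 (15.1, 36.8 and 17.2 against 4.29, 2.12 and 0.778).

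Wall-loosening genes that changed at EB were mostly higher in WF. Of 72 expansins and xyloglucan endotransglucosylases, 25 (16 without Mr replicate 2) (34.7%) were higher in WF and 5 (3 without Mr replicate 2 or 3) higher in Mr. At ES 7 genes of the list were higher in WF and 9 higher in Mr, against 12.5% and 12.4% over all tested genes. At LS, without Mr replicate 2, 4 were higher in WF and 4 higher in Mr. The summed FPKM at EB was 7362 to 8243 in WF and 4051 to 4919 in Mr. Some expansins are made in pollen, and the part in this result of the pollen list, whose sums are given above, was not tested. HF10528, an expansin, had 40.2, 45.5 and 51.1 FPKM in WF and 4.12, 2.94 and 4.92 in Mr (adjusted p = 1.48e-04). It was at 116, 115 and 63.3 and 71.1, 55.4 and 56.2 at ES, and the difference changed by 2.60 ± 0.33 between EB and ES (adjusted p = 0.00465). HF18779, whose model joins a xyloglucan endotransglucosylase to a glyoxal oxidase, was higher in Mr (7.98, 3.47 and 11.4 against 0.938, 1.86 and 0.755), a call lost without Mr replicate 1 (adjusted p = 0.058). Pectin-modifying enzymes had 33 (18 without Mr replicate 1, 20 without Mr replicate 2, 17 without Mr replicate 3) and 34 of 144, with HF19108 at 9.83, 20.9 and 25.3 in WF and 1.77, 1.43 and 1.98 in Mr and the polygalacturonase HF42994 at 26.3, 25.8 and 22.6 in Mr and 5.28, 1.44 and 1.29 in WF.

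Other lists had DEGs on both sides. Cytochromes P450 had 57 higher in WF and 34 higher in Mr of 201, with HF35679 at 48.1, 36.4 and 71.1 FPKM in WF and 1.11, 1.26 and 1.54 in Mr. HF32233, a model of 390 bases, was at 56.1, 55.9 and 53.02 in Mr and 2.27, 2.35 and 2.95 in WF (adjusted p = 5.16e-05). Photosynthesis genes had 24 (10 without Mr replicate 1, 12 without Mr replicate 2, 11 without Mr replicate 3, 13 without WF replicate 2) and 14 (9 without Mr replicate 1 or 2, 8 without Mr replicate 3) of 78, although the chlorophyll a-b binding proteins had 7 higher in WF and 12 higher in Mr of 39. HF29260, with a chlorophyll a-b binding domain joined to an ATPase, had a mean of 38.1 in WF and 7.64 in Mr, a call lost without Mr replicate 1, 2 or 3 or WF replicate 2 (adjusted p = 0.058 to 0.064). Sugar transporters had 24 and 19 (10 without Mr replicate 1 or 3) of 89, with HF30597 at 39.2, 44.8 and 47.7 in WF and 9.72, 7.95 and 10.8 in Mr and HF31183 at 7.20, 8.38 and 10.4 in Mr and 0.770, 0.961 and 0.985 in WF. Aquaporins had 8 (5 without Mr replicate 1, 4 without Mr replicate 2 or 3) and 5 (3 without Mr replicate 1, 2 or 3, 3 without WF replicate 2) of 31, with HF00254 at 162, 129.9 and 115 in WF and 29.9, 26.97 and 30.99 in Mr and HF41610 at a mean of 6.14 in Mr and 1.34 in WF. ABC-2 transporters had 15 and 7 (13 without WF replicate 1) of 54, with HF40683 at 134, 159 and 255 in WF and 42.5, 39.3 and 42.2 in Mr and HF12592 at 37.04, 35.98 and 39.2 in Mr and 17.5, 9.57 and 10.4 in WF.

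Cell division genes had 34 (16 without Mr replicate 1 or 3, 19 without Mr replicate 2, 21 without WF replicate 2, 54 without WF replicate 3) higher in WF and 35 (22 without Mr replicate 1, 23 without Mr replicate 3) in Mr of 234. Their extremes were HF38275, with a kinesin motor domain (mean 7.21 FPKM in WF and 0.0419 in Mr), and HF28471, with an MCM2/3/5 domain (3.34, 1.75 and 2.07 in Mr and no fragment in WF, at least 21.3-fold lower). F-box genes had 33 (16 without Mr replicate 1, 17 without Mr replicate 2, 15 without Mr replicate 3) and 24 (12 without Mr replicate 1, 15 without Mr replicate 3) of 178. HF26262 was at 31.4, 41.9 and 47.6 in WF and 9.56, 7.97 and 11.7 in Mr, and HF14009 at 4.22, 3.96 and 5.91 in Mr with no fragment in WF, at least 29.3-fold lower. Genes with transposable element domains had 47 (27 without Mr replicate 1, 28 without Mr replicate 2, 29 without Mr replicate 3) and 31 of 177, with HF29357 at 12.5, 14.7 and 13.6 in WF and 0.744, 0.594 and 0.537 in Mr (adjusted p = 6.49e-05) and a newly assembled copia-type gene at chr15:15729446-15732296 with 5.29, 8.09 and 6.30 in Mr and no fragment in WF.

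Over all 772 domain names with at least 10 tested genes, the highest share higher in WF was in a zinc-ribbon domain, with 11 of 15 genes higher in WF and 1 higher in Mr. It was followed by glycosyltransferase family 20, which holds trehalose-phosphate synthases, with 8 of 12 higher in WF and 1 in Mr, calmodulin binding protein-like genes, a family of defence regulators, with 9 of 14 and none in Mr, DUF1645 genes with 7 of 11 and 1 in Mr, and the RPW8 mildew resistance domain with 13 of 21 and 3 in Mr. At ES none of the zinc-ribbon or DUF1645 genes was higher in WF, while 7 of the family 20 genes, 4 of the calmodulin binding genes and 6 of the RPW8 genes were, and 2 family 20 genes, 4 RPW8 genes and 1 DUF1645 gene were higher in Mr. The ES shares over all tested genes were 12.5% higher in WF and 12.4% higher in Mr. The leading genes of these families, chosen after their values were seen, were HF25224 (49.1, 41.8 and 70.6 FPKM in WF and 11.1, 6.74 and 12.01 in Mr), HF09151 (23.97, 24.6 and 31.8 and 1.99, 2.08 and 3.33), HF38110 (9.78, 6.64 and 14.1 and 0.408, 0.533 and 0.413), HF07335 (65.7, 35.5 and 61.1 and 7.93, 7.19 and 9.61) and HF18927 (5.07, 5.53 and 5.83 and 0.397, 0.238 and 0.492). In each the WF and Mr libraries did not overlap, as for all but 5 of the DEGs. HF18927 also carries an NB-ARC domain and is counted in the NB-ARC list as well. Without Mr replicate 1, 4 DUF1645 genes were higher in WF.

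The highest shares higher in Mr were in NAD(P)H-binding proteins (6 of 10), the ABC1 family of plastid and mitochondrial kinase-like proteins (13 of 23, and 1 higher in WF), gamma-thionins (8 of 15), which are small defence peptides, PRONE proteins (7 of 14), which activate the Rop GTPases of polar growth, and PAP fibrillins of plastids (5 of 10). At ES 6, 11, 4, 4 and 3 genes of these families were higher in Mr, against 12.4% over all tested genes. HF00717, an ABC1 gene, had 113, 104 and 106 FPKM in Mr and 16.9, 22.2 and 24.1 in WF (adjusted p = 1.74e-04). The leading genes of the others were HF11917 (45.02, 45.2 and 41.6 in Mr, 17.6, 22.99 and 18.8 in WF), HF04805 (51.6, 38.9 and 62.1 in Mr, 5.54, 18.8 and 9.86 in WF), HF00225 (8.21, 6.75 and 7.48 in Mr, 1.27, 1.37 and 2.72 in WF) and HF19402 (60.5, 53.7 and 60.97 in Mr, 23.8, 22.5 and 26.2 in WF), all chosen after their values were seen. PRONE genes higher in Mr fell to 3 without Mr replicate 1 and to 4 without Mr replicate 3 or WF replicate 2.

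At the later stages, in libraries not used above, the same contrast gave 7387 DEGs at ES, 3710 (12.5%) higher in WF and 3677 (12.4%) higher in Mr. Without Mr replicate 1, 2 or 3 ES had 4299, 4316 and 4794 DEGs, and without WF replicate 3 it had 4782. At LS, Mr replicate 2 held a median of 17.3% of the WF level over 91 genes that were near 0 in the other Mr libraries and expressed in WF, and LS had 6786 DEGs with it and 3706 without it, of which 1693 (5.71%) were higher in WF and 2013 (6.79%) higher in Mr. With Mr replicate 2 kept, LS had 2673 and 2665 DEGs without Mr replicate 1 or 3, 2655 without WF replicate 3 and 8636 without WF replicate 2. Of the 5621 genes higher in WF at EB, 4793 (85.3%) had the same direction at ES, 2409 were DEGs in that direction and 55 were DEGs in the opposite direction. Of the 4858 genes higher in Mr at EB, 4419 (91.0%) had the same direction at ES, 2295 were DEGs in it and 16 in the opposite. At all 3 stages, without Mr replicate 2 at LS, 1026 genes were higher in WF and 1132 higher in Mr.

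The difference between WF and Mr changed from EB to ES for 1003 genes, 758 (2.56%) more towards WF at EB and 245 (0.826%) more towards Mr at EB. With libraries scaled by their total fragments the split was 585 and 442, and that scaling moved the median change over all genes from -0.01 to -0.17. Without WF replicate 2 at ES the split was 603 and 416. Without Mr replicate 1, 2 or 3 at EB 342, 331 and 410 genes passed, without WF replicate 2 or 3 at EB 652 and 495, and without Mr replicate 2 at ES 455. In SF, which is in neither group, genes higher in WF at EB had a median ES minus EB change of -0.04 on the log2 scale and those higher in Mr 0.05, against 0.01 over all tested genes.

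DEGs were spread over the genome. Their share of the tested genes was 30.8% to 38.2% on the 17 chromosomes, and 22.9% of 109 genes on unplaced sequence. It was 34.8% for the annotated HF genes and 40.7% for newly assembled genes, and 32.9% to 39.7% over 5 equal classes of the mean level, the class of the highest level having the highest share.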

How the data were processed

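RNA was sequenced from whole flowers in paired 150-base reads, and the authors deposited 1 table of FPKM for 48445 genes (44677 annotated HF genes and 3768 newly assembled) on the apple HFTH1 Whole Genome v1.0 assembly, with Pfam domain descriptions. The submitters' processing notes name StringTie 1.3.3b and DESeq2 1.16.1, and how reads of near-identical genes were assigned is not given in the sources used here. FPKM times length came out as a whole number of fragments within 0.05 for 100% of 771151 values below 1000 fragments. On these recovered fragments, an alternative with limma voom called 10784 genes. The FPKM denominator was 1.08 to 1.09 times the fragments on genes in the Mr libraries at EB and 1.01 to 1.07 times in WF. Lengths of 98.1% of HF genes are multiples of 3, so they are coding lengths. The table held no sample column that could not be mapped to a label. No sequence is shown, since no genome was used here.

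Genes with at least 1 FPKM in at least 3 of 27 libraries were tested (29660). The values, as log2(FPKM + 1), went into limma (version 3.58.1, R 4.3.3) with a variance trend and only the libraries of the groups compared, with Benjamini-Hochberg adjustment over all tested genes, and the script was tested on simulated data. The change between EB and ES was tested as an interaction. A log2 difference is on the log2(FPKM + 1) scale and understates changes of low genes, SE is its standard error, and fold values are ratios of mean FPKM. Limits from 3 fragments cover counting error only. Genes named were the 10 largest rises and falls among DEGs without overlapping libraries, the 5 largest differences in FPKM each way, the leading DEG of each list each way, the DEGs among the genes the study lists, and the 5 domain families with the highest shares each way. Others are said to be chosen after their values were seen. Lists and rules were chosen with earlier results of these data known. Alternatives were another pseudocount, no filter or a filter on the fitted libraries, 1 fit over 9 groups, the replicate number as a block, no trend, scaling by total fragments or TMM factors, voom, a minimum log2 difference of 1, and leaving out each library. Python 3.11.15, pandas 2.3.3 and matplotlib 3.10.9 were used for tables and plots.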

Additional observations from a re-analysis of the deposited data

Results flagged for a closer look

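The difference between WF and Mr was not the same at EB and ES for 1003 genes by the interaction test in limma. With 1 library left out this number was 331 to 1491, and calls of single genes in those fits are not given. Among named genes, the EB difference minus the ES difference, in log2(FPKM + 1) with its SE, was 8.38 ± 1.96 (adjusted p = 0.047) for the AP2/ERF gene HF30831 and 8.55 ± 1.94 (0.042) for HF22606, and it was 4.21 ± 0.86 for the WRKY gene HF08596, 4.13 ± 0.84 for the NAC gene HF26081 and 4.49 ± 1.06 for the DUF1645 gene HF07335, so all 5 stood higher in WF, relative to Mr, at EB than at ES. The same sign was found for the lipoxygenase HF00494 (3.99 ± 0.70), the expansin HF10528 (2.60 ± 0.33), the acid phosphatase HF00321 (2.33 ± 0.26), the alcohol dehydrogenase HF15151 (1.70 ± 0.40) and the glycosyltransferase HF09151 (1.09 ± 0.25), all higher in WF at EB. At ES the Mr libraries had 0.964, 108 and 167 FPKM for HF22606 and 16.1, 152 and 183 for HF07335. As for HF30831, the high Mr levels of these genes at ES lay in replicates 2 and 3.

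Among genes higher in Mr at EB, the change was positive for the DUF642 gene HF32696 (3.07 ± 0.42), the newly assembled gene at chr13:17592731-17594072 (1.85 ± 0.31), the cytochrome P450 HF32233 (1.44 ± 0.19), the small heat shock protein HF28946 (1.26 ± 0.22) and the lipoxygenase HF18003 (0.99 ± 0.18), whose fitted differences were thus larger at ES than at EB. It was negative for the GDSL-like lipase HF10951 (-4.19 ± 0.38), the polygalacturonase HF42994 (-2.56 ± 0.46), the acyltransferase HF27219 (-2.14 ± 0.22) and the newly assembled copia-type gene at chr15:15729446-15732296 (-1.89 ± 0.18). HF10951 fell in Mr from a mean of 46.4 FPKM at EB to 1.77 at ES, and HF32696 rose in Mr from 71.8 to 442. Adjusted p-values of these genes lay between 0.00110 and 0.048.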

How the results depend on the processing

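Of 2238 recomputed values of the EB comparison for 140 named genes, none reversed direction, 2150 stayed on the same side of the threshold and 88 lost the call, in 28 genes. Apart from the minimum log2 difference, the calls of HF07380, HF15151, HF18003, HF31862, HF35977 and HF04805 were lost only in the fit over all 9 groups, and that of HF22606 only with voom. Some calls lost without a library were also lost in the limma fit over all 9 groups. Among these were HF10388 (adjusted p = 0.45), HF00627 (0.23), HF18779 (0.14) and HF22119. Counts of lists and families changed by over 1.5-fold in 224 of 1472 values. The cause of these changes was not tested.

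With a log2 difference of at least 1 also required, 3471 DEGs (2076 higher in WF and 1395 higher in Mr) were left at EB and 3418 at ES. At LS 4058 were left with Mr replicate 2 and 3035 without it. The other LS values here keep Mr replicate 2, unless they leave out that library. In the fit over all 9 groups LS had 12235 DEGs and 531 genes changed between EB and ES, and with voom 462 changed. Leaving out each library gave 6490 to 11688 DEGs at EB, 3532 to 6364 of them higher in WF and 2958 to 5324 higher in Mr, 4299 to 7196 at ES, 2655 to 8636 at LS, and 331 to 1491 genes with a change between EB and ES. With 1 library left out, a group of 2 shared the spread of the other group. Same-numbered WF and Mr libraries at EB did not deviate together (correlations of -0.02, -0.08 and 0.04), so the numbers were not taken as pairs. With the replicate block EB had 8137 DEGs, ES had 3851, LS had 2456 and 621 genes changed between stages.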

Other observations

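Further domain families stood high in the ranking of shares without being among the first 5. The plant zinc cluster domain, found in group II WRKY proteins, had 6 of 11 tested genes higher in WF and none higher in Mr at EB, and no DEG at ES. Acid phosphatases of HAD subfamily IIIB, the family of HF00321, had 6 of 12 higher in WF and 1 higher in Mr at EB, and 4 higher in WF at ES. Genes with a squalene-hopene cyclase C-terminal domain, which includes plant triterpene cyclases, had 6 of 12 higher in WF and 1 higher in Mr at EB. MATH domain genes went the other way, with 12 of 29 higher in Mr and none higher in WF at EB, and 11 higher in Mr at ES. These families were picked after their values were seen. The shares over all tested genes were 19.0% higher in WF and 16.4% higher in Mr at EB, and 12.5% and 12.4% at ES.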
